A study of Mus musculus with 8 samples.

Results

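The genes described here are Parp9, Parp10, Parp11, Parp12, Parp14, Zc3hav1 and Dtx3l, which are known to respond to interferon, together with Parp1, a constitutive member of the same enzyme family that serves as the comparison. They were chosen by their GENCODE symbols, and all 8 were found as single rows among the 55385 genes of the deposited count table. The libraries were made from primary cultured microglia of wild-type mice, the resident macrophages of the brain, grown from pooled neocortices and hippocampi of newborn pups. Microglia were shaken off the mixed culture after 12 days, replated for 3 days, and then left untreated (4 control libraries; the methods give PBS) or exposed for 24 h, at day 15 in vitro, to IgG from mouse serum at 10 µg/ml (4 IgG libraries). Same-numbered cultures of the groups carry 1 date and form a pair. The comparison addresses how IgG in the medium altered the transcripts of these cells.

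PARP enzymes transfer ADP-ribose from NAD onto proteins and nucleic acids. PARP1 builds long chains at DNA breaks, whereas most of the interferon-inducible members attach a single unit or, like PARP9 alone and ZAP, have little or no catalytic activity of their own. DTX3L is a ubiquitin ligase that binds PARP9, and the complex acts in DNA repair and in antiviral defence. PARP14 and PARP9 carry macrodomains, which bind ADP-ribose. PARP10 and PARP12 restrict replication of some viruses, PARP11 modifies a ubiquitin ligase that acts on the interferon receptor subunit IFNAR1, and ZAP, the product of Zc3hav1, binds CpG-rich viral RNA and recruits RNA decay enzymes.

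In mm10, Parp14 (chr16:35832874-35871544, minus strand), Dtx3l (chr16:35926511-35939151, minus strand) and Parp9 (chr16:35938470-35972605, plus strand) lie together on chromosome 16. Dtx3l and Parp9 are arranged head to head, and their annotated 5′ ends overlap, with 458 exonic bases in common on opposite strands. Zc3hav1 (chr6:38305286-38354603, minus strand), Parp12 (chr6:39086410-39118349, minus strand) and Parp11 (chr6:127446840-127494261, plus strand) are on chromosome 6, Parp10 (chr15:76231174-76243441, minus strand) on chromosome 15 and Parp1 (chr1:180568924-180601254, plus strand) on chromosome 1. Parp10 shares 205 exonic bases with Plec on the same strand, and Parp14 shares 110 with the unclassified locus Gm49730. Reads from these bases, shared on the same strand, cannot be assigned to either gene. The sources do not state whether counting used strand, so reads from the bases shared by Dtx3l and Parp9 cannot be assigned either.

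Promoter windows of RefSeq, on GRCm38.p6 and from 250 bases before to 50 after a transcription start, were found for 5 of the 8 members (Parp1, Parp11, Parp12, Zc3hav1 and Dtx3l). They were searched for the letters GAAANNGAAA on both strands, the core of the interferon-stimulated response element (ISRE), and for TTCNNNGAA, the gamma-activated sequence (GAS), which reads alike on both strands. Of these 5 genes, Parp11 held a match, at the first of its 2 annotated starts. The ISRE match lies 44 to 35 bases before the start (chr6:127446796-127446805) on the opposite strand, and a GAS match, which overlaps it, 37 to 29 bases before. Of all 32841 windows, 3.44% held the ISRE letters and 8.3% the GAS letters. Counted by gene, as for the members, it was 3.99% and 9.55% of 27018 genes. The 250 bases before the start are shown for Parp11 (chr6:127446590-127446839, plus strand), where the matches lie, and for Parp1 (chr1:180568641-180568890, plus strand), the comparison gene; capitals mark the ISRE letters. The counts do not tell which start of Parp11 was used.
Parp11: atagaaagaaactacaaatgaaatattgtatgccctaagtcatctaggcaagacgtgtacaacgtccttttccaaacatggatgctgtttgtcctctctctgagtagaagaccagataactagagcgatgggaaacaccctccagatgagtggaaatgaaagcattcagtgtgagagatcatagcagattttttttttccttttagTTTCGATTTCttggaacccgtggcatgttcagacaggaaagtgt
Parp1: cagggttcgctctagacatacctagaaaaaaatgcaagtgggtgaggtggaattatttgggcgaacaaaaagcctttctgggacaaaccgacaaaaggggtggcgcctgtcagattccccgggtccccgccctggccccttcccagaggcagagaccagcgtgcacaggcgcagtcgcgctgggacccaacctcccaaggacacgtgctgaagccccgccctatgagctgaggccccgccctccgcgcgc

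The libraries held 21287816 to 23703216 counts. IgG libraries 1 and 3 stood apart, with 4.85% and 5.59% of their counts from mitochondrial genes against 1.97% to 2.41% in the other 6 libraries, so the fold change of each member is also given for pairs 2 and 4 alone. All 10 microglial markers were expressed (summed level 7863 to 8626 CPM in control and 8468 to 9447 CPM in IgG libraries). Of 7 oligodendrocyte lineage markers all were detected, at a summed 1175 to 1785 CPM in control and 1010 to 1682 CPM in IgG libraries, and the 6 astrocyte markers summed to 111 to 124 and 106 to 119 CPM. The part of such cells in the values below was not tested. Levels are given as CPM, the read count relative to the TMM-scaled library total, and in bulk RNA fewer cells of a type and less RNA per cell cannot be told apart.

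Per kilobase of exon, untreated microglia expressed Parp14 most, at 30.8 ± 9.20 CPM/kb (SD, n = 4), and Parp11 least, at 3.04 ± 0.43 CPM/kb. Between them lay Parp12 (24.5 ± 5.38 CPM/kb), Parp1 (23.0 ± 0.24), Zc3hav1 (20.6 ± 1.83), Parp9 (15.4 ± 3.65), Parp10 (11.3 ± 2.60) and Dtx3l (10.3 ± 2.41). Neighbours in this order overlapped between libraries except for Parp11, whose highest control value (3.57 CPM/kb) was below the lowest of Dtx3l (7.30 CPM/kb). In IgG libraries Parp14 reached 49.0 ± 22.7 CPM/kb, from 21.7 in replicate 4 to 72.5 in replicate 1, which is the widest range of the 8 genes.

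The untreated cultures differed among themselves in the level of these genes more than most genes did. The control library of replicate 1 had 2.11 times the Parp14 level of the control library of replicate 4. The same ratio was 1.80 for Parp9, 1.80 for Dtx3l, 1.79 for Parp10, 1.68 for Parp12, 1.39 for Parp11 and 1.24 for Zc3hav1, but 1.03 for Parp1. Over the 11928 genes with at least 5 CPM, the median ratio of the highest to the lowest control library was 1.15. On the log2 scale, the SD over the 4 control libraries was 0.46 for Parp14 and 0.13 for Zc3hav1, against 0.02 for Parp1 and a median of 0.09 over those genes. From highest to lowest, the control libraries stood in the order 1, 3, 2, 4 for all 7 inducible genes, an order that 8.17% of all 17537 tested genes showed. The IgG libraries had the order 1, 3, 2, 4 for 6 of the 7, all but Parp10, and 15.8% of all genes showed it there. For those 6 genes the order held in both groups, as it did for 2.9% of all genes. This order was noticed in the values and not looked for beforehand. For Parp14, Parp9, Dtx3l, Parp10 and Parp12 the ratio between control cultures 1 and 4 exceeded the fitted fold change with IgG, which was 1.497, 1.39, 1.47, 1.19 and 1.28.

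**Figure D1:**
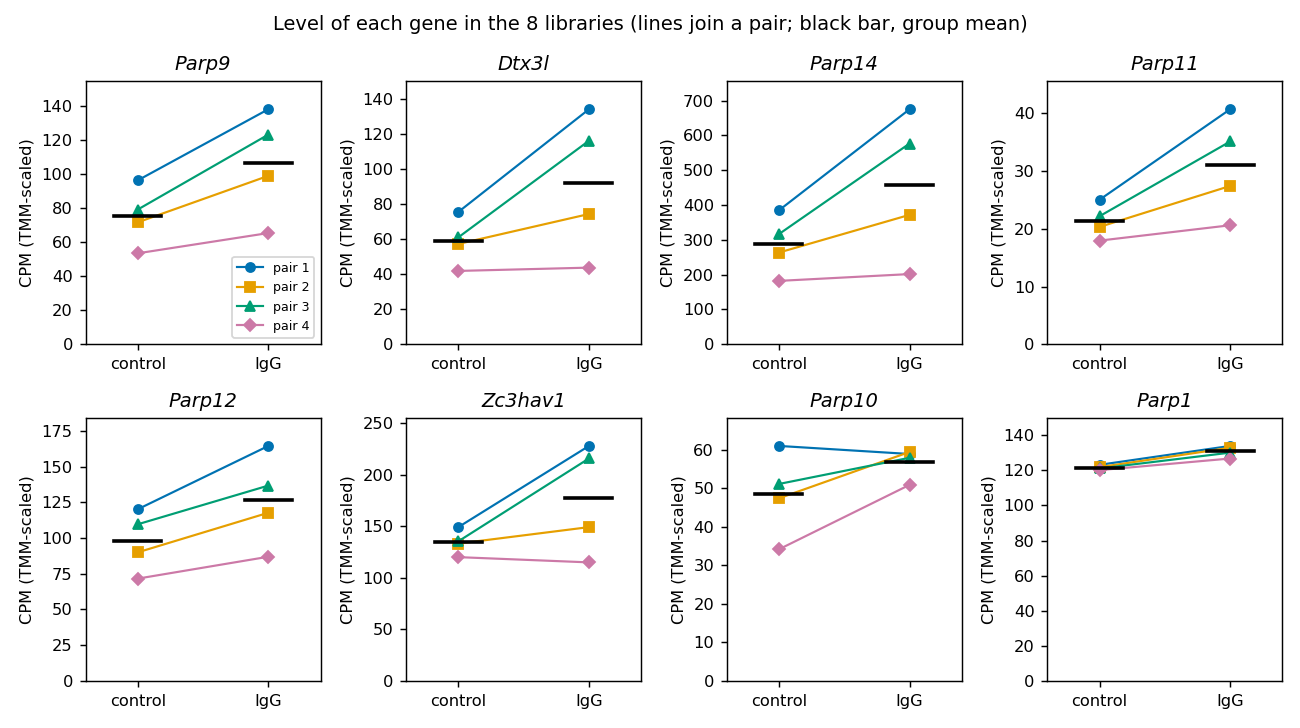
Level of each gene (y axis, TMM-scaled CPM, starting at 0) in control and IgG libraries; each coloured line joins the 2 libraries of a pair and the black bar is the group mean (n = 4). The lines of pair 1 start highest and those of pair 4 lowest for the 7 inducible genes, whereas the 4 lines of Parp1 lie within 120.15 to 134 CPM.

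IgG libraries had higher mean levels of all 7 inducible genes, by log2 fold changes of 0.26 to 0.58, but no member passed correction over all genes. In edgeR's quasi-likelihood test with the pair as a block, 0 of the 8 members had an adjusted p under 0.05, where 0.393% of all genes were called higher. Of the 7, 6 had an unadjusted p under 0.05 (all higher; 6.35% of all genes were higher and 3.85% lower at this p), and 3, Parp14, Dtx3l and Parp11, had an unadjusted p under 0.01 and a log2 fold change above 0.5, the thresholds of the study (1.48% of all genes were higher and 0.342% lower by them). Parp11, at a log2 fold change of 0.502, was close to the threshold. Other tests on the same pairs called 3 members (DESeq2), 4 (the likelihood ratio test of edgeR) and 0 (limma-voom) at an adjusted p under 0.05, where 1.21%, 1.6% and 0.496% of all genes were called higher. Without the filter on low counts edgeR called 4 (0.972%). Without the block 0 passed correction, none of the 7 met the study's thresholds (0.582% of all genes did, counting those higher) and 1, Parp11, had an unadjusted p under 0.05 (4.83% of all genes). Parp9, Dtx3l, Parp14, Parp11 and Parp12 were higher in all 4 pairs, as were 10.4% of all genes. None of the 7 had IgG libraries that were all above the control libraries, which 2.6% of all genes had. The median log2 fold change of the 7 was 0.48, beside -0.0051 over all tested genes, and in pairs 1 to 4 it was 0.61, 0.39, 0.66 and 0.20. The counts changed with single pairs. Without pair 4, 4 members, Parp9, Dtx3l, Parp14 and Parp11, had an adjusted p under 0.05 (0.974% of all genes were called higher). Without pair 1, 2 or 3 none did (0.0794%, 0% and 0.0908%). None met the study's thresholds there either, by which 190, 245 and 194 genes were higher, of 17626, 17550 and 17625 tested. In pairs 2 and 4 alone, chosen after seeing the data, 0 members passed correction (0.867%). Without the block and without IgG library 4, 5 members met the study's thresholds (2.56% of all genes were higher by them).

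**Figure D2:**
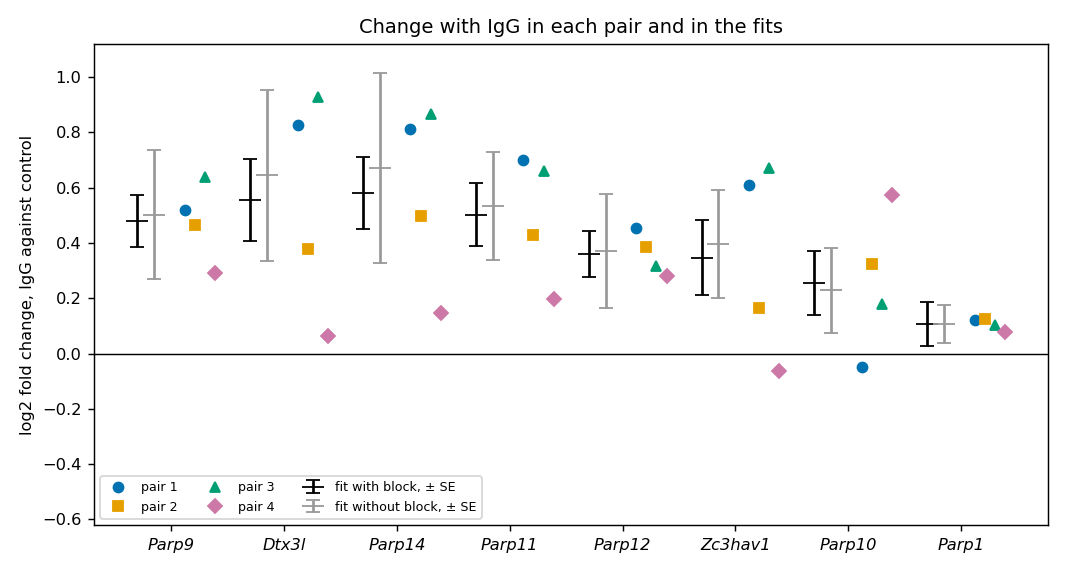
Log2 fold change with IgG (y axis) of each gene; coloured symbols are the changes within the 4 pairs, and bars are the fitted values ± SE with the pair as a block (black) and without it (grey). Pair 4 is the lowest of the 4 symbols for every gene but Parp10, where it is the highest at 0.57.

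Parp9 had 96.3, 71.7, 79.2 and 53.4 CPM in control libraries 1 to 4 and 138, 99.0, 123 and 65.4 CPM in the IgG libraries. Every IgG library was above its own control, but IgG library 4 was below control libraries 1, 2 and 3. The log2 fold change was 0.48 (SE 0.09, adjusted p = 0.100 in edgeR with the block), and its unadjusted p of 0.0008036 was the smallest of the 8 members, at rank 140 of the 17537 genes. Without the block the SE was 0.23 and the adjusted p 0.692. In pairs 2 and 4 alone the log2 fold change was 0.38.

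Dtx3l, which encodes the partner of PARP9, had 75.4, 57.1, 60.9 and 41.8 CPM in control and 134, 74.2, 116 and 43.7 CPM in IgG libraries. IgG libraries 1 and 3 were above all controls, and IgG library 4 was below controls 1, 2 and 3. The within-pair changes, 0.83, 0.38, 0.93 and 0.06 on the log2 scale, were the most uneven of the 8 genes, with an SD of 0.40. The log2 fold change was 0.55 (SE 0.15, adjusted p = 0.284 with the block in edgeR; 0.64, SE 0.31, adjusted p = 0.692 without it), and 0.22 in pairs 2 and 4 alone.

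The ratio of Dtx3l to Parp9 was nearly the same in all untreated cultures and spread out with IgG. In control libraries 1 to 4 there were 0.783, 0.797, 0.769 and 0.782 Dtx3l counts for each Parp9 count, although the level of each gene differed 1.80-fold between these cultures. In IgG libraries the ratio was 0.970, 0.750, 0.941 and 0.668. It was above every control in IgG libraries 1 and 3, which have the high mitochondrial share, and below every control in IgG libraries 2 and 4. The mean difference of the changes, Dtx3l minus Parp9, was 0.07 on the log2 scale (SD 0.27, n = 4 pairs, above 0 in 2 of 4, two-sided exact sign-flip permutation p = 0.75), which is smaller than the spread between pairs. With trends on gene length and GC content removed (described below) the differences in pairs 1 to 4 were 0.25, -0.09, 0.23 and -0.16, against 0.31, -0.09, 0.29 and -0.23 as counted. The ratio of Parp14 to Parp9 counts split in a like way for 3 of the 4 IgG libraries. It was 3.99, 3.68, 4.00 and 3.40 in control and 4.89, 3.75, 4.68 and 3.08 in IgG libraries, above every control in libraries 1 and 3, below every control in library 4 and within the controls in library 2. The part of the mitochondrial share in these splits was not tested.

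**Figure D3:**
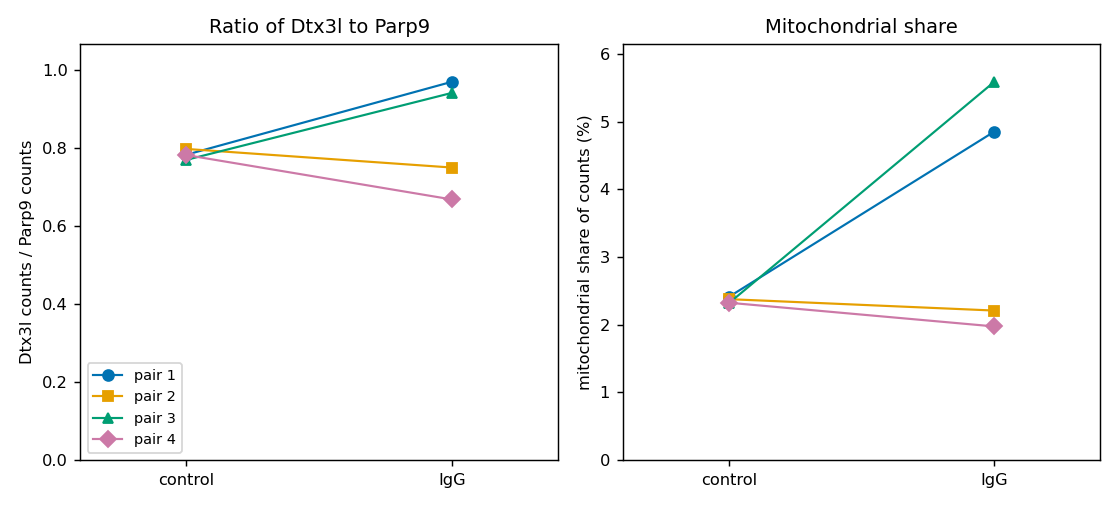
Left, Dtx3l counts divided by Parp9 counts (y axis) in each library, and right, the share of counts from mitochondrial genes in percent; lines join the 2 libraries of a pair. The 4 control ratios lie between 0.769 and 0.797, and IgG libraries 1 and 3 are the highest in both panels.

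Parp14, which encodes a mono-ADP-ribosyltransferase with several macrodomains, had 385, 263, 316 and 182 CPM in control and 675, 372, 577 and 202 CPM in IgG libraries. IgG library 4 was again above its own control but below the other 3 controls. The log2 fold change was 0.58, the largest of the 8 members (SE 0.13, adjusted p = 0.168 in edgeR with the block; 0.67, SE 0.34, adjusted p = 0.693 without it). The within-pair changes were 0.81, 0.50, 0.87 and 0.15, and pairs 2 and 4 alone gave 0.32.

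Parp11 had 25.05, 20.3, 22.2 and 17.96 CPM in control and 40.7, 27.4, 35.1 and 20.6 CPM in IgG libraries, where replicate 4 was again the lowest. With the block its log2 fold change was 0.50 (SE 0.11, adjusted p = 0.175 in edgeR), and in pairs 2 and 4 alone it was 0.32. Parp12, whose product is a mono-ADP-ribosyltransferase with RNA-binding zinc fingers, had 120.2, 90.01, 109.7 and 71.6 CPM in control and 165, 118, 137 and 86.9 CPM in IgG libraries. Each IgG library was above its own control, but IgG library 4 was below controls 1, 2 and 3. Its within-pair changes were the most even of the 7 inducible genes, at 0.45, 0.39, 0.32 and 0.28 (SD 0.08). The log2 fold change of Parp12 was 0.36 (SE 0.08, adjusted p = 0.193 with the block in edgeR), and pairs 2 and 4 alone gave 0.33.

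Zc3hav1 had 149, 133, 135 and 120.02 CPM in control and 228, 149, 216 and 115 CPM in IgG libraries. Only IgG libraries 1 and 3 stood clear of the controls, IgG library 2 equalled the highest control, and IgG library 4 was below its own control. The log2 fold change was 0.35 (SE 0.14, adjusted p = 0.465 in edgeR with the block), with within-pair values of 0.61, 0.16, 0.67 and -0.06. In pairs 2 and 4 alone it was 0.05. Counts are per gene, so the long form of ZAP, which carries the PARP-like domain, and the short form without it are not separated.

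Parp10, which encodes a mono-ADP-ribosyltransferase, took a different course over the pairs. Its level was 61.0, 47.4, 51.2 and 34.2 CPM in control and 59.0, 59.5, 58.0 and 50.9 CPM in IgG libraries. The IgG libraries lay close together (log2 SD 0.10) while the controls spread over 0.35, the reverse of the other 6 inducible genes, whose log2 SD was larger in the IgG group. The change was -0.05 in pair 1 and largest, 0.57, in pair 4, the pair with the smallest change of the other 6. The log2 fold change was 0.26 (SE 0.12, adjusted p = 0.502 with the block in edgeR), and 0.45 in pairs 2 and 4 alone. It was lower without pair 4, at 0.13, and with scaling by library totals only, at 0.16.

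Parp1 had 123, 122, 121 and 120.15 CPM in control and 134, 133, 130.1 and 127 CPM in IgG libraries. The groups did not overlap, but the difference was small, a log2 fold change of 0.11 (SE 0.08, adjusted p = 0.646 in edgeR with the block), and 0.10 in pairs 2 and 4 alone. It depended on the scaling, at 0.07 with upper quartile scaling and 0.0066 with scaling by library totals only, a setting that shifted the median of all genes by -0.1. A difference between 2 genes of a library does not depend on scaling, so each inducible gene was set against Parp1 within the pairs. The length and GC trends described below remain in these differences. The mean log2 change in excess of Parp1 was 0.47 for Parp14, 0.44 for Dtx3l, 0.39 for Parp11, 0.37 for Parp9, 0.25 for Parp12, 0.24 for Zc3hav1 and 0.15 for Parp10. It was above 0 in 4 of 4 pairs for Parp14, Parp11, Parp9 and Parp12 and in 3 of 4 for the others. The median of these 7 values was 0.37, and 0.22 in pairs 2 and 4 alone. With 4 pairs the two-sided exact sign-flip permutation test cannot go below 0.125, which those 4 genes reached (0.25 after Benjamini-Hochberg adjustment over the 8 such contrasts, the one of Dtx3l against Parp9 included). Dtx3l gave 0.25, and Zc3hav1 and Parp10 gave 0.375 in the same exact test.

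The change within a pair followed the length and GC content of genes in pairs 1, 3 and 4. Across 11916 genes, which are not independent replicates, the Spearman correlation of the change with GC content was -0.46, -0.02, -0.46 and 0.40 in pairs 1 to 4, and with exon length 0.26, -0.02, 0.27 and -0.53. The members span these properties: the GC content of the longest transcript was 57.9% for Parp10, 52.7% for Parp1, 50.6% for Parp12 and 47.5% for Parp9, and 45.9% to 46.5% for Dtx3l, Parp14, Zc3hav1 and Parp11. When the trends were removed from each library, the pairs came closer together for 6 of the 7 inducible genes, as they did for 61.8% of all genes. The SD of the within-pair changes went from 0.33 to 0.10 for Parp14, from 0.23 to 0.07 for Parp11, from 0.26 to 0.13 for Parp10, from 0.35 to 0.21 for Zc3hav1, from 0.40 to 0.28 for Dtx3l and from 0.14 to 0.09 for Parp9, but from 0.08 to 0.10 for Parp12. All 7 were then higher in all 4 pairs (12.8% of all genes were), with Parp10 at 0.15, 0.34, 0.38 and 0.45 and Zc3hav1 at 0.46, 0.16, 0.51 and 0.10. In this fit, with the block, Parp14 (log2 fold change 0.54, SE 0.07, adjusted p = 0.0105 in edgeR), Parp9 (0.45, SE 0.07, adjusted p = 0.0149) and Parp11 (0.46, SE 0.08, adjusted p = 0.0301) passed correction over all genes, where 1.14% of all genes were called higher. Parp12 (0.36, adjusted p = 0.0501 in edgeR), Dtx3l (0.51, 0.0570), Parp10 (0.33, 0.102) and Zc3hav1 (0.31, 0.192) did not, nor did Parp1 (0.12, 0.431).

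**Figure D4:**
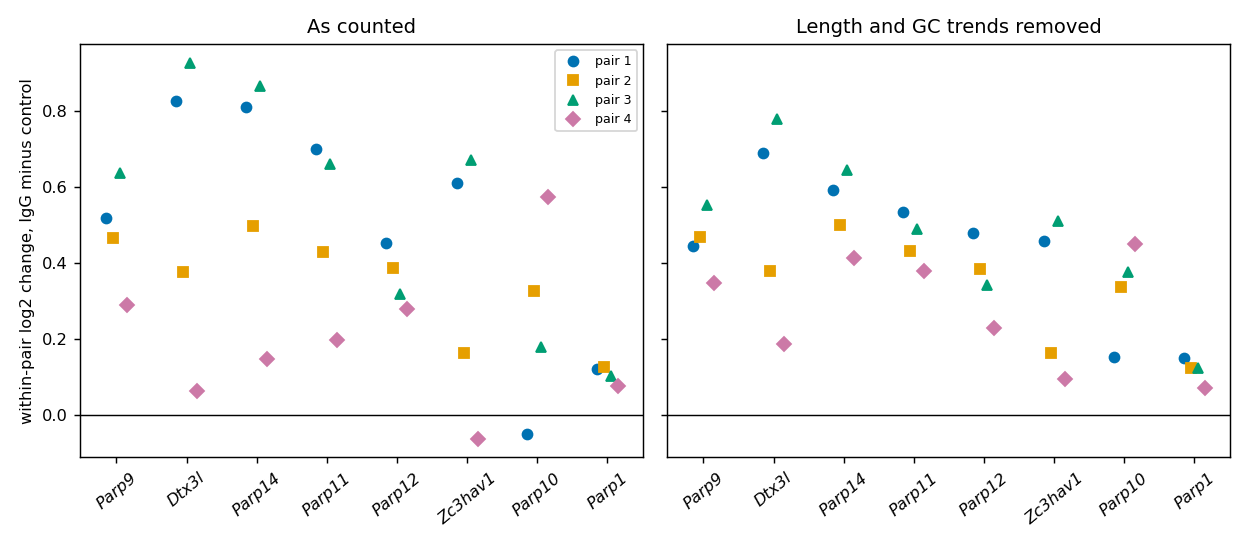
Within-pair log2 change with IgG (y axis) of each gene as counted (left) and after trends on exon length and GC content were removed from each library (right); symbols are the 4 pairs. On the right all values of the 7 inducible genes are above 0, the lowest being 0.10 for Zc3hav1 in pair 4.

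Of 9 other enzymes of the PARP family (Parp2, Parp3, Parp4, Parp6, Tiparp, Parp8, Parp16, Tnks and Tnks2), which were all tested, 0 passed correction and 0 had an unadjusted p under 0.05 in edgeR, and DESeq2, limma-voom and the likelihood ratio test gave 0 as well. Of all genes, edgeR called 0.393% higher after correction, DESeq2 1.21%, limma-voom 0.496% and the likelihood ratio test 1.6%. At an unadjusted p under 0.05 in edgeR, 6.35% of all genes were higher and 3.85% lower. Given these shares, counts of 0 in the short lists here do not set their genes apart. With the length and GC trends removed 0 passed correction (1.14% of all genes were called higher) and 1, Parp4, had an unadjusted p under 0.05 (log2 fold change -0.19, SE 0.08, adjusted p = 0.350 in edgeR). The log2 fold changes of the 9 enzymes ran from -0.25 (Parp16) to 0.15 (Tnks2) with a median of 0.01, and none was higher in all 4 pairs, which 10.4% of all genes were. The 12 hydrolases and readers of ADP-ribose had a median of -0.09, from -0.27 (Macrod1) to 0.05 (Enpp1), and 0 had an unadjusted p under 0.05 in any of these tests. Among the 4 paralogs of Dtx3l the values ran from -0.74 (Dtx3) to 0.09 (Dtx2). Dtx3 (unadjusted p = 0.0390, adjusted p = 0.474 in edgeR) had within-pair values of -1.46, -0.04, -1.65 and 0.11. Of the 4, DESeq2 and limma-voom called 0 at an adjusted p under 0.05, as edgeR did.

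Of 10 tested genes that make or use NAD, the substrate of PARPs, 2 had an unadjusted p under 0.05 in edgeR, both higher (6.35% of all genes). After correction 0 passed, where 0.393% of all genes were called higher. Cd38, a consumer of NAD, had the largest log2 fold change (0.94, SE 0.21, adjusted p = 0.152 in edgeR), from 18.3 to 39.5 CPM. It passed correction in DESeq2, the likelihood ratio test and the fit with the trends removed, which called 1 of the 10 each. Of all genes, these called 1.21%, 1.6% and 1.14% higher. Limma-voom called 0 of the 10, beside 0.496% of all genes. The within-pair values of Cd38 were 1.56, 0.55, 1.29 and 0.29. The values of pairs 1 and 3, whose IgG libraries had the high mitochondrial share, were thus above those of pairs 2 and 4, and the part of that share was not tested. Nmnat1, at -0.15, had the lowest value. Nampt, the rate-limiting enzyme of NAD salvage, had 0.32 (SE 0.12, adjusted p = 0.459) and was higher in all 4 pairs, although by only 0.0004 in pair 4. Among 11 cofactors and decay enzymes that work with ZAP, the values ran from -0.31 (Ddx17, an RNA helicase, unadjusted p = 0.0210) to 0.24 (N4bp1), and 0 passed correction in edgeR, DESeq2, limma-voom or the likelihood ratio test. Ddx17 had within-pair values of -0.50, -0.0025, -0.46 and -0.27.

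Of the 12 genes of interferon signalling, 1 passed correction in edgeR with the block, the transcription factor gene Irf7 (log2 fold change 1.13, SE 0.09, adjusted p = 0.00593), and 4 had an unadjusted p under 0.05, all higher, beside 6.35% of all genes. Without the block the call of Irf7 was lost (1.103, SE 0.38, adjusted p = 0.692). DESeq2, the likelihood ratio test and the fit with the trends removed called 3 of the 12 each (1.21%, 1.6% and 1.14% of all genes were called higher), and limma-voom called 2 (0.496%). Their median was 0.16 and the lowest was Irf1 (-0.07). Stat2 (0.45, SE 0.09, adjusted p = 0.110) and Irf9 (0.25, SE 0.09, adjusted p = 0.423), which encode transcription factors of the interferon response, were among these 4. Stat2 thus lay between Parp12 and Parp9 in its log2 fold change. The within-pair values were 0.46, 0.39, 0.60 and 0.33 for Stat2 and 0.12, 0.28, 0.27 and 0.32 for Irf9. Irf7 changed by 1.06, 1.05, 1.11 and 1.30 in pairs 1 to 4, so that, as with Parp10, its largest value was in pair 4.

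Among 11920 genes with at least 5 CPM outside the members, the patterns most like each member over the 8 libraries, by Pearson's r of log2 CPM, were those of Adar and Sp100 for Parp9 (r = 0.998 and 0.997), Slfn8 and Ifi203 for Parp14 (0.998 each), Casp4 and Eif2ak2 for Dtx3l (0.997 each), Siglec1 and Cp for Parp11 (0.994 and 0.991), and Helz2 and Dck for Parp12 (0.994 and 0.992). For Zc3hav1 they were Capza2 and Actr2 (0.997 each), for Parp10 Ifi27l2a and Socs3 (0.980 and 0.976), and for Parp1 Ppfibp2 and Rims3 (0.992 and 0.978). These values are descriptions over the same 8 libraries, which share culture dates, scaling and the length and GC trends. Among the members themselves, r was highest between Dtx3l and Parp14 (0.995), Parp9 and Parp14 (0.989), Parp9 and Parp12 (0.986), Zc3hav1 and Dtx3l (0.982), Dtx3l and Parp9 (0.981) and Parp12 and Parp14 (0.979), which are pairs within chromosome 16 and pairs between chromosomes 16 and 6 alike. Parp10 was least like the other 6 inducible genes, with r from 0.594 (Zc3hav1) to 0.839 (Parp12). Parp1, the comparison gene, had a similar range with the 7 inducible genes, from 0.659 (Parp10) to 0.834 (Parp11).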

How the data were processed

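RNA of 4 control and 4 IgG-treated microglia cultures was sequenced. The authors deposited whole-number counts per Ensembl gene, neither normalized nor filtered, from reads cleaned of adapters and low quality and aligned to mm10 with HISAT2 2.2.1; the submitters' notes also list featureCounts. The annotation and strand setting are not given in the sources used here. Symbols, coordinates and exon lengths came from GENCODE M21 (mm10), in which 55144 of the identifiers were found.

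Counts were scaled with TMM, filtered with filterByExpr (17537 genes left) and fitted in edgeR 4.0.16 (quasi-likelihood; R 4.3.3) with group and replicate number, the block, and Benjamini-Hochberg adjustment over all genes. A prior count of 2 was added for log2 CPM. The dates in the labels pair the samples, and the departures of paired libraries from the mean of their group had correlations of 0.468, 0.429, 0.28 and 0.325 over 11928 genes. Libraries of different numbers gave -0.384 to 0.278, the highest being control 1 with IgG 3, close to the value of pair 3. No pair of libraries in a group agreed within sampling noise (chi-square per degree of freedom at least 5.00). With the block, p-values measure how unevenly the change ran over these pairs. Without it, they measure the spread between these cultures. Nothing says that pairs came from separate litters, so neither reaches beyond these cultures. A count of 0 allows up to 0.127 to 0.141 CPM.

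In simulated data with culture effects, the block recovered 92% of genes changed by 0.5 on the log2 scale (3% without it), with 10 false calls among 17550 genes. The simulation held no length or GC trends and no difference in mitochondrial share, and it changed only well-counted genes. Its recovery and false calls thus cannot be carried over to these libraries. Alternatives were other scalings, filters and tests (DESeq2 1.42.0, limma 3.58.1), the fit without the block, the omission of pairs or libraries, and removal of lowess trends (span 0.3) on exon length and GC content. The 8 members were all named, from the other lists the genes passing adjustment and the extremes, and the 2 genes most like each member. Parp4, Stat2, Irf9, Nampt, Ddx17 and Dtx3 were named after their values were seen. The members and lists were chosen with earlier results of these data known. Some items are not reported here.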

Additional observations from a re-analysis of the deposited data

How the results depend on the processing

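All 8 members had a positive log2 fold change under each of 23 other settings, of which pairs 2 and 4 alone was added after seeing the data. The size varied. Over these settings it ran from 0.080 to 0.45 for Parp10, 0.051 to 0.56 for Zc3hav1, 0.22 to 0.88 for Dtx3l and 0.32 to 0.92 for Parp14. For Parp11 it ran from 0.32 to 0.69, for Parp9 from 0.35 to 0.68, for Parp12 from 0.22 to 0.51 and for Parp1 from 0.0066 to 0.12. The number of genes at an adjusted p under 0.05 was 69 with the block and 0 without the replicate block, and it was 37 with library totals only, 376 without the filter on low counts, 231 with DESeq2, 327 with the likelihood ratio test, 210 with the length and GC trends removed and 190 in pairs 2 and 4 alone. It ran from 0 to 182 when pairs were left out and from 0 to 6 when single libraries were left out without the block. The number of members among them was 0 with the block, 4 without the filter and with the likelihood ratio test, and 3 with DESeq2 and with the trends removed. It ran from 0 to 4 when pairs were left out. The number of members meeting the study's thresholds was 3 with the block, 0 without the block, with library totals only and in pairs 2 and 4 alone, 2 (Parp14 and Dtx3l) in the 6 settings of RLE and upper quartile scaling, no filter, at least 10 counts in every library, DESeq2 and trends removed, where Parp11 was at 0.46 to 0.496, and from 0 to 5 with pairs or single libraries left out, the 5 without IgG library 4 (Parp9, Parp11, Parp14, Zc3hav1 and Dtx3l). Of all genes, 260 were higher by these thresholds with the block, 102 without it, 172 with library totals only and 207 in pairs 2 and 4 alone. It was 217 to 374 genes in the 6 settings and 55 to 455 with pairs or single libraries left out. Each setting tested 15905 to 31368 genes. Beside these numbers, 0 of 8 members does not set the members apart. The cause of the differences between settings was not tested. The median change of the 7 inducible genes in excess of Parp1 was 0.37 on the log2 scale with the block, 0.40 without it, from 0.32 to 0.42 without single pairs and 0.22 in pairs 2 and 4 alone.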
